A study of Mus musculus with 52 samples.

Results

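HM-1 was compared directly with ZFCUMNT, and both are mouse embryonic stem (ES) cell lines. The comparison is made up of the 4 two-colour arrays whose titles pair HM-1 with ZFCUMNT, out of 52 arrays in the series. All 52 arrays set pairs of 7 ES lines against each other in 13 comparisons of 4 arrays each. Total RNA of 1 line was labelled with Cy3 and that of the other with Cy5. On arrays 1 and 2 ZFCUMNT was in Cy5 and HM-1 in Cy3, and on arrays 3 and 4 the dyes were exchanged.

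HM-1 is an established mouse ES line that lacks a working Hprt gene and has been used for gene targeting. No label gives a strain, passage, sex, genotype or treatment for either line. ZFCUMNT is known from the labels by that name alone. The series description says that cumulus cells, which surround the egg, gave the donor nuclei of a pair of lines made by different cloning methods, and it does not name that pair. The labels do not say whether the 4 arrays came from separate cultures. The p-values rest on the spread between arrays within comparisons, pooled over the whole series, and that spread may be technical. A ratio of the lines gives no level, so whether either line expressed ES cell markers could not be checked. Fewer cells of a type and less RNA per cell cannot be told apart in such samples either.

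Each value is a log2 ratio, turned by the dye labels so that it is ZFCUMNT minus HM-1 if the deposited ratio is Cy5 over Cy3. Neither the dye in the numerator nor the base of the logarithm is stated, so both are readings. With the opposite numerator all signs would turn together, and values are therefore called positive or negative rather than higher or lower. A step of 1 on this scale is a factor of 2. The table held 20794 probes, 12771 of them with a gene symbol, and averaging the probes of each gene gave 17053 features, of which 9030 were genes. Each of the 4 arrays measured from 19149 to 19514 probes. From 80 to 112 probes an array sat at a single ceiling value, between 16.4 and 17.1, and were treated as not measured.

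ES cells renew themselves through a network of transcription factors around Pou5f1 and Sox2, and Zfp42 (Rex1) is a classic marker of the naive state of that network. Nodal, a secreted TGF-beta family ligand, acts on ES cells and induces its own inhibitors Lefty1 and Lefty2. When a somatic nucleus is placed in an oocyte, its expression programme has to be reset. Imprinted genes, which are expressed from the copy inherited from 1 parent, are known to be prone to error in that process and in cultured ES cells.

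The promoter windows of 4 genes are shown because they belong to the pluripotency, histone and imprinted genes that passed the test and had a single start site. The windows are the 250 bases before the annotated start, 5′ to 3′ on the gene's strand, from RefSeq on GRCm38.p6. RefSeq windows matched 9 of the 11 genes that passed the test, and Lefty2 and Rbm8a had none. Capitals mark matches on either strand to the octamer ATGCAAAT, the CCAAT box, the GC box core GGGCGG and TATAAA. They lie at chr8:43307010-43307259 (minus strand) for Zfp42, chr11:116024505-116024754 (minus strand) for H3f3b, chr13:23530794-23531043 (plus strand) for H4c8 and chr7:6730420-6730669 (minus strand) for Peg3.

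Zfp42: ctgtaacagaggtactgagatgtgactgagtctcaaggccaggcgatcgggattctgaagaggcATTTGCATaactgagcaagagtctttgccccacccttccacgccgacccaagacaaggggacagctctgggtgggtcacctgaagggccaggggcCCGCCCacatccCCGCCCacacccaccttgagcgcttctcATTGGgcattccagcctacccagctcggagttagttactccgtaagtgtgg
H3f3b: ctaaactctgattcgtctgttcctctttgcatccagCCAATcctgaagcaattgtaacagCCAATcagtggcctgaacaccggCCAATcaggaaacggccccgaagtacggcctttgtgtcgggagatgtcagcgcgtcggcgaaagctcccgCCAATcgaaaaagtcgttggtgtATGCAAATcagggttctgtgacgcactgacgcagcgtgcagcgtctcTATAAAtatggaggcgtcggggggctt
H4c8: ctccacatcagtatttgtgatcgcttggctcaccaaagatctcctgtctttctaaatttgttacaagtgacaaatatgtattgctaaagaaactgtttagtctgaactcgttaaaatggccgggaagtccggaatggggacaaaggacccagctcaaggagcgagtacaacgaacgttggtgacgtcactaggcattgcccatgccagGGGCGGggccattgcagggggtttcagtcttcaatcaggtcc
Peg3: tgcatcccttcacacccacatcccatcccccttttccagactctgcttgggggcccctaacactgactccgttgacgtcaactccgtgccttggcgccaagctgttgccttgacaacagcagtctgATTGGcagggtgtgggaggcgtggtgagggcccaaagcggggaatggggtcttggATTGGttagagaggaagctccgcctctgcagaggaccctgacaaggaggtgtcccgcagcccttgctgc

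The octamer was in the windows of Zfp42, 186 to 179 bases before the start, and H3f3b, 74 to 67 bases before it. Of 32851 RefSeq windows of this length 1.6% held it. H3f3b had 4 CCAAT boxes, Peg3 2 and Zfp42 1, and 33.8% of all windows held at least 1. TATAAA was in the H3f3b window, 27 to 22 bases before the start, as in 12.4% of all windows. GGGCGG was in the Zfp42 window at 2 places and in the H4c8 window at 1, as in 32.7% of all windows. These matches describe letters and were not tested against the ratios.

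Between HM-1 and ZFCUMNT 16 of 15906 tested features passed an adjusted p of 0.05 in limma's moderated test (0.101%), 6 of them positive (0.0377%) and 10 negative (0.0629%). The fit took all 52 arrays together, and each feature had 1 value per comparison and 1 dye effect. The 11 with a symbol were Lefty2, Dhcr7, Zfp42, Epha4, H3f3b, Mid1 and H4c8 on the negative side, and Fcrls, Peg3, Rbm8a and S100a11 on the positive side. The other 5 were probes without a gene symbol. Before adjustment 766 features (4.82%) had a p under 0.05, and the median of all features was -0.06. Before the results are given gene by gene, the arrays themselves are described: those of this comparison correlated mainly by dye. The rank correlation over features was 0.304 for arrays 1 and 2, 0.229 for arrays 3 and 4, and between -0.120 and -0.0874 for arrays of opposite orientation. With the dye term of the other 48 arrays removed, opposite orientations lay between 0.0103 and 0.0352, close to 0. With the 4 arrays fitted alone no feature passed (1478 had an unadjusted p under 0.05, and 920 without a dye term), so every call rests on the spread estimated from all 52 arrays.

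**Figure D1:**
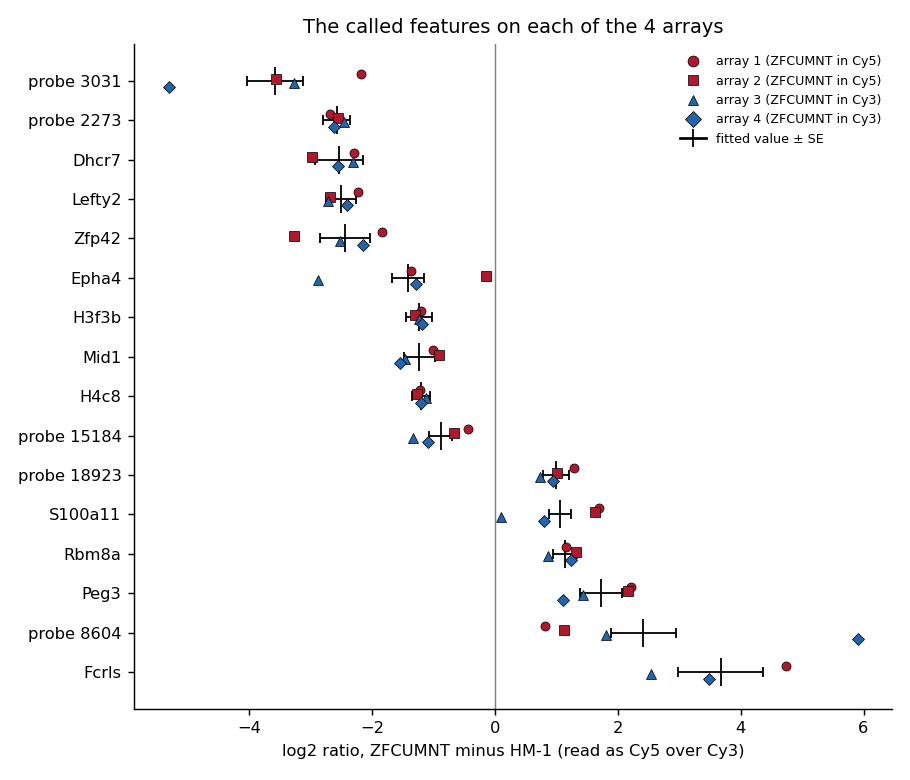
Log2 ratio (x axis, ZFCUMNT minus HM-1) of the 16 features that passed the test (y axis) on each of the 4 arrays, with the fitted value ± SE. Lefty2, H4c8 and H3f3b lie close together on all 4 arrays, while Epha4 and S100a11 spread widely.

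Zfp42, the zinc finger gene better known as Rex1 (Entrez gene 22702, chromosome 8), was at -1.84 on array 1, -3.27 on array 2, -2.52 on array 3 and -2.14 on array 4. All 4 arrays were far below 0, with array 2 the lowest. The fitted value was -2.44 ± 0.41 (SE, n = 4 arrays, limma adjusted p = 9.5e-04). It was the 1 member of 27 tested core pluripotency genes that passed. The list had a median of -0.12 against -0.06 for all features, with 11 members positive and 16 negative. An unadjusted limma p under 0.05 was found for 8 of the 27, against 4.82% of all features. With arrays weighted by their precision Trim28, Utf1 and Dnmt3l passed positive, and Zfp42, Tcl1 and Tbx3 negative. Of all features 308 of 15906 passed with those weights.

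The central factors of the network did not pass. Pou5f1, which encodes Oct4, was at 0.51, 0.34, 0.31 and 0.06 on arrays 1 to 4 (fitted 0.30 ± 0.22), and Sox2 at 0.39, -0.48, -0.56 and -0.37 (-0.25 ± 0.45). Klf4 was at -0.35 ± 0.18 with all 4 arrays negative, and Esrrb at -0.38 ± 0.47. Sall4 (-0.13 ± 0.22) and Sall1 (-0.21 ± 0.35), zinc finger partners of the network, were near 0 as well. Utf1, a chromatin-bound factor of undifferentiated cells, was the most positive member at 1.25 ± 0.42 (adjusted p = 0.45), with arrays between 0.82 and 1.52. Fgf4, a growth factor under Oct4 and Sox2 control, was at 0.69 ± 0.37. Tcl1, a kinase coactivator expressed in naive ES cells, was negative on all 4 arrays (-0.51, -0.56, -2.39 and -1.95), with arrays 3 and 4 well below arrays 1 and 2 (-1.35 ± 0.32, adjusted p = 0.097). Dppa3, a maternal factor that protects methylation in the zygote, was at 0.99, 1.92, -1.07 and 1.19, with array 3 against the others (0.76 ± 0.35, adjusted p = 0.94). Dppa5a split by dye, at 0.63 and 0.81 on arrays 1 and 2 and -0.20 and -0.43 on arrays 3 and 4. Klf2 was measured on 2 of the arrays and not tested.

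**Figure D2:**
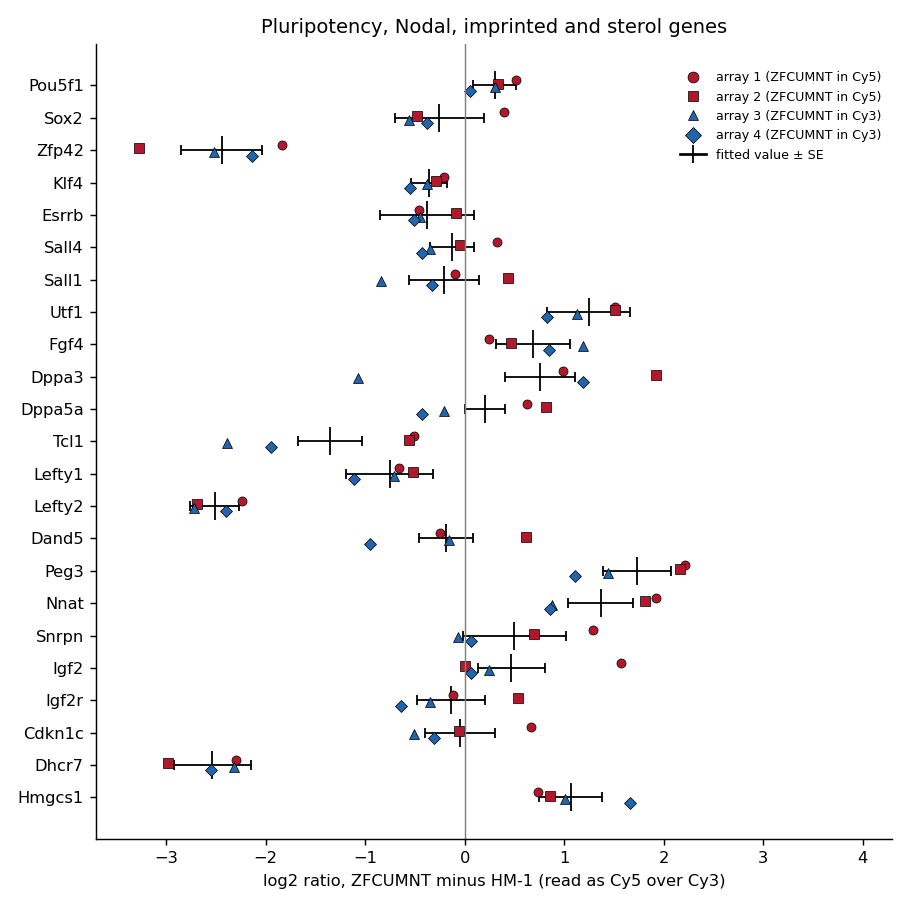
Log2 ratio (x axis, ZFCUMNT minus HM-1) of pluripotency, Nodal inhibitor, imprinted and sterol genes (y axis) on each array, with the fitted value ± SE. Zfp42, Lefty2 and Dhcr7 sit below -1.8 on every array, whereas Pou5f1, Sox2, Klf4, Esrrb and Sall4 lie around 0.

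Lefty2 (Entrez gene 320202, chromosome 1) encodes a secreted antagonist of Nodal and was at -2.24, -2.69, -2.72 and -2.40 on arrays 1 to 4. The 4 values lay within a narrow band in both dye orientations. The fitted value was -2.51 ± 0.25 (limma adjusted p = 4.9e-09), the smallest adjusted p among genes with a symbol. Its neighbour and relative Lefty1 was negative on all 4 arrays too, between -1.11 and -0.52, but at -0.75 ± 0.44 it did not pass. Its probes gave means of -1.15 and -0.36. Dand5, another secreted antagonist of Nodal, was at -0.19 ± 0.27. Of 6 tested markers of the primed epiblast and Nodal, 5 were negative and Lefty2 was the member called, with a list median of -0.36. Neither Nodal nor its co-receptor Tdgf1 was among the gene symbols of the array, so the ligand side of the pathway could not be read. Whether any of the 8023 probes without a symbol measure them is not known.

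H4c8 (Entrez gene 69386, chromosome 13), which encodes a replication-dependent histone H4, was at -1.22, -1.27, -1.12 and -1.20. The spread over arrays was 0.06 (SD) around a fitted value of -1.20 ± 0.15 (limma adjusted p = 3.7e-06). H3f3b (Entrez gene 15081, chromosome 11), a gene for the replacement histone H3.3, was at -1.21, -1.30, -1.24 and -1.19, with a fitted value of -1.24 ± 0.21 (adjusted p = 9.5e-04). Its 2 probes had means of -1.25 and -1.22. Histone genes form families of near-identical copies, so the gene behind either signal is uncertain. The histone list as a whole did not follow these members, with 6 of 13 positive, 7 negative and a median of -0.21. Among the others H1f2 was at 0.02 ± 0.19, H3c15 at -0.49 ± 0.27 and Hils1, a testis linker histone, at 0.52 ± 0.35.

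Dhcr7 (Entrez gene 13360, chromosome 7), the reductase of the last step of cholesterol synthesis, was at -2.29, -2.98, -2.32 and -2.55. Every array was below -2, and the fitted value was -2.54 ± 0.39 (limma adjusted p = 2.5e-04). Most other genes of the pathway had the opposite sign. Of 13 tested cholesterol synthesis genes 10 were positive, the list median was 0.53, and the median was above 0 on each of the 4 arrays. Hmgcs1, which makes HMG-CoA, was at 0.74, 0.86, 1.01 and 1.66 (1.07 ± 0.32, adjusted p = 0.29). Mvk, mevalonate kinase, was the most positive at 1.27 ± 0.70 on 3 arrays. Dhcr7 was the member called.

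Peg3 (Entrez gene 18616, chromosome 7), a paternally expressed imprinted zinc finger gene, was at 2.21, 2.16, 1.44 and 1.11. The arrays with ZFCUMNT in Cy5 were above those with it in Cy3, and all 4 were above 1. The fitted value was 1.73 ± 0.34 (limma adjusted p = 0.013). Nnat, a paternally expressed proteolipid gene, had the same shape at 1.92, 1.82, 0.87 and 0.86, and at 1.37 ± 0.32 it did not pass (adjusted p = 0.097). Snrpn (0.50 ± 0.52) and Igf2 (0.47 ± 0.33) were positive in the fit, but 1 array carried Igf2, with 1.57 on array 1 and values from -0.001 to 0.24 on the others. Of 11 paternally expressed genes 9 were positive, with a median of 0.36 and Peg3 as the member called. Over all features 43.3% were positive. The list median was -0.001 on array 2 and between 0.22 and 0.63 on the other arrays. An unadjusted limma p under 0.05 was found for 2 of the 11. Of 15 maternally expressed genes 6 were positive and none was called, with a median of -0.05. Cdkn1c (-0.05 ± 0.35) and Igf2r (-0.14 ± 0.34) belong to the latter list. The Peg3 call was lost when any 1 of the 4 arrays was left out, with its value still between 1.67 and 2.07 over all alternatives.

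Rbm8a (Entrez gene 60365, chromosome 3), a core protein of the exon junction complex, was at 1.15, 1.32, 0.86 and 1.24, with a fitted value of 1.14 ± 0.19 (limma adjusted p = 9.5e-04). S100a11 (Entrez gene 20195, chromosome 3), a calcium-binding protein, was at 1.70 and 1.63 on arrays 1 and 2 but 0.10 and 0.80 on arrays 3 and 4. Its fitted value was 1.06 ± 0.18 (adjusted p = 9.5e-04), and the call was lost without array 4 and without the dye term. Epha4 (Entrez gene 13838, chromosome 1), an ephrin receptor tyrosine kinase, was at -1.37, -0.15, -2.87 and -1.28 (-1.42 ± 0.26, adjusted p = 0.0050). Array 2 was near 0 and array 3 far below the rest, and the call was lost without array 1 or array 3.

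Fcrls (Entrez gene 80891, chromosome 3), an Fc receptor-like scavenger receptor known from microglia, had the largest fitted ratio at 3.68 ± 0.69 (limma adjusted p = 0.0084). It was at 4.74, 2.54 and 3.49 on arrays 1, 3 and 4 and was not measured on array 2. Without array 4 or with the top values kept it did not pass (adjusted p up to 0.58). Mid1 (Entrez gene 17318, chromosome X), a microtubule-associated ubiquitin ligase, averaged between -1.55 and -0.91 on the 4 arrays over 3 probes (-1.23 ± 0.26, adjusted p = 0.026). Its probes disagreed, with means of -1.84, -2.18 and 0.33, and the call was lost without any 1 array.

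Of the 5 unnamed probes, probe_2273 was at -2.68, -2.56, -2.46 and -2.62 (-2.58 ± 0.23, limma adjusted p = 3.8e-10), the smallest adjusted p of all features. Its arrays differed by an SD of 0.09. Probe_3031 was at -2.18, -3.56, -3.27 and -5.31 (-3.58 ± 0.45), the most negative value of all. Probe_15184 (-0.88 ± 0.19) and probe_18923 (0.99 ± 0.22) were nearer to 0, and probe_8604 (2.41 ± 0.53) owed most of its value to 5.91 on array 4. Just outside the threshold, at an adjusted p between 0.05 and 0.1, lay 20 features, of which 9 were unnamed probes and 11 had a symbol. The 11 were Alad, Srek1, Triml1, Tubb4b, Tcl1, Nnat, Atox1, Bst2, Ints9, Necap1 and Acot13. Triml1, a tripartite motif gene, was negative on all 4 arrays at -1.39 ± 0.32, and Bst2, the interferon-inducible tetherin, positive on all 4 at 0.75 ± 0.18.

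The same pair of lines could also be compared through another line on the 48 other arrays, by adding HM-1 to X and X to ZFCUMNT with X as HM-1 NT, #4 (B6), B6NT or PDCUMNT. The mean of these 4 paths gave 83 calls among 12501 features (0.664%), 71 positive and 12 negative, and 9.58% had an unadjusted p under 0.05. Of the 16 direct calls 14 had an indirect value, since Zfp42 and probe_3031 could not be tested through all 4 paths. The direct test took its spread from all 52 arrays, these 48 among them, so the direct and indirect calls are not independent. Of the 16 there were 10 (62.5%) that passed here too, which is 12.05% of the 83. They were probe_2273, Lefty2, H4c8, Dhcr7, S100a11, Rbm8a, H3f3b, Epha4, Peg3 and probe_18923, each with the sign of the direct value. The difference between the direct and the indirect value passed an adjusted p of 0.05 in limma for 0 of 12386 features (386 had an unadjusted p under 0.05, 3.12%). Of the 83 indirect calls 50 had a direct unadjusted p under 0.05, 49 with the same sign and 1, probe_11847, with the opposite sign (-0.52 direct, 0.57 indirect), against 4.49% of all features tested both ways.

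**Figure D3:**
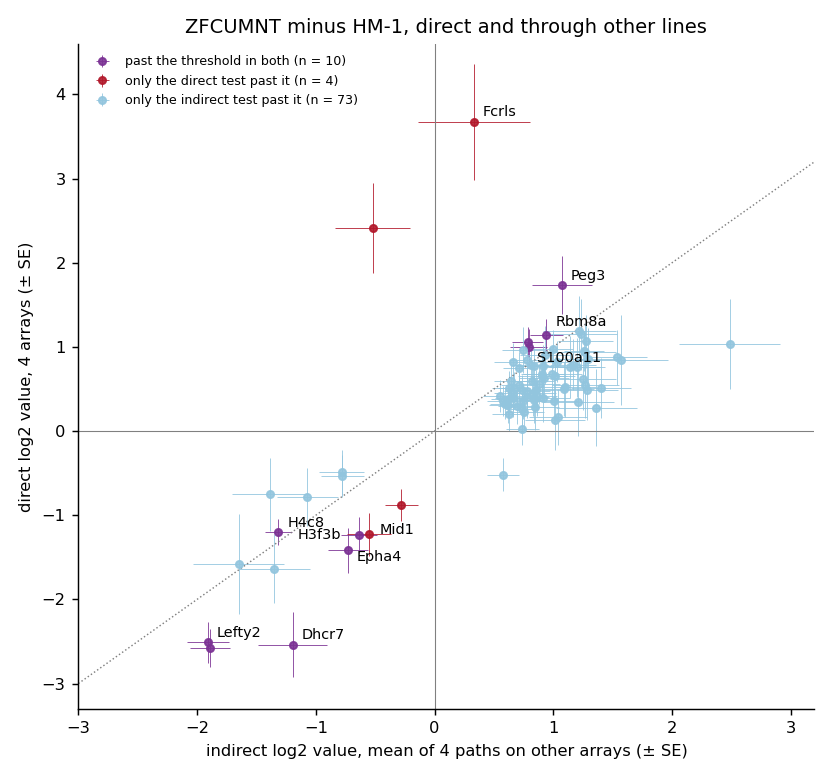
Direct log2 value from the 4 arrays (y axis) against the mean of the 4 indirect paths (x axis), each ± SE, for features called by either test. The dotted line marks equal values, and Fcrls stands far from it at 3.68 against 0.33.

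H4c8 was at -1.32 ± 0.11 in the indirect mean, with a difference of 0.11 ± 0.19 from its direct value. Lefty2 was at -1.91 ± 0.18, nearer to 0 than on the direct arrays, with a difference of -0.60 ± 0.30. Rbm8a was at 0.94 ± 0.14, S100a11 at 0.78 ± 0.13 and Peg3 at 1.07 ± 0.25. Dhcr7 was at -1.19 ± 0.29, nearer to 0 than on the direct arrays. Fcrls (0.33 ± 0.47) and probe_8604 (-0.52 ± 0.32) had no indirect value near the direct one.

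HM-1 NT vs ZFCUMNT, which enters 1 of these paths, had arrays that went against each other. Dhcr7 was at 1.42, -2.72, 1.72 and -0.69 on its arrays 1 to 4, and Peg3 at -1.10, 1.97, -2.09 and 0.49. Arrays 1 and 3 had the opposite sign to arrays 2 and 4 for both genes, after turning by the labels. That path was left out after these values were seen, so the move of Dhcr7 and Peg3 was fixed by the choice. Without it 57 features were called (48 positive, 9 negative). Dhcr7 moved to -1.65 ± 0.34 and Peg3 to 1.46 ± 0.29, and H3f3b no longer passed (limma adjusted p = 0.058). Leaving those 4 arrays out of the joint fit, also chosen after the data were seen, gave 23 direct calls that held all 16.

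The 4 paths differed among themselves. Through PDCUMNT alone Dhcr7 was at -2.72 ± 0.61, Zfp42 at -2.70 ± 0.63, Peg3 at 1.90 ± 0.50, Epha4 at -1.74 ± 0.32, Mid1 at -1.19 ± 0.38 and Lefty2 at -2.15 ± 0.36. Through B6NT Dhcr7 was at -2.06 ± 0.57, Zfp42 at -2.32 ± 0.58, Peg3 at 2.16 ± 0.50, Epha4 at -0.98 ± 0.32 and Mid1 at -0.28 ± 0.38. Through #4 (B6) Dhcr7 was at -0.15 ± 0.57, Peg3 at 0.32 ± 0.50 and Epha4 at -0.39 ± 0.32, and Zfp42 had no value. Through HM-1 NT Dhcr7 was at 0.16 ± 0.57, Zfp42 at -0.46 ± 0.63, Peg3 at -0.09 ± 0.50 and Epha4 at 0.20 ± 0.35. Dhcr7, Peg3 and Epha4 lay nearer to 0 through #4 (B6) and through HM-1 NT than through PDCUMNT or B6NT. The PDCUMNT path was tested on its own after the data were seen. It rests on 8 arrays, and 14 features passed, with Lefty2, H4c8, Epha4 and probe_2273 among the 16 direct calls.

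The order of names sets a further limit. HM-1 is the first-named line in all of its comparisons and ZFCUMNT the second-named in all of its own, so any part shared by every turned ratio adds to the direct value and adds again in an indirect path. With a value for each line plus a term for that shared part, an alternative chosen after seeing the data, 11 features were called over all 52 arrays and 8 of them were among the 16. These 8 were probe_2273, Lefty2, H4c8, probe_3031, Dhcr7, S100a11, Epha4 and H3f3b. Zfp42 was at an adjusted p of 0.055 and Rbm8a at 0.51 there. On the 48 other arrays the same model called 4 features in place of 83, all negative, and these were probe_2273, H4c8, probe_15554 and Lefty2.

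Genes called on the indirect arrays alone were mostly positive and included pluripotency genes that the 4 direct arrays left below the threshold. Dppa3 was at 1.20 ± 0.23 (limma adjusted p = 0.0049), Pou5f1 at 0.70 ± 0.16 (0.022) and Dppa5a at 0.63 ± 0.15 (0.028). Lefty1 was at -1.38 ± 0.32 (0.026), Hmgcs1 at 1.27 ± 0.23 (0.0022) and Dnmt3l, a cofactor of de novo DNA methylation, at 1.23 ± 0.30 (0.040). Bex2, an X-linked adaptor gene, was the most positive at 2.49 ± 0.43, against 1.04 ± 0.54 on the direct arrays. On those 48 arrays none of the positive ones passed in the model with the shared term.

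Several of the called genes were also called against other lines in the HM-1 comparisons. The other 5 comparisons with HM-1 share that line with this one, so their values are set side by side without a test of likeness. Their shares of called features were 0.254% for HM-1 NT, 0.219% for #4 (B6), 0.17% for B6NT, 0.494% for B6PGA and 1.14% for PDCUMNT. The other comparisons with ZFCUMNT called 0.292% (HM-1 NT), 0.935% (#4 (B6)), 0.124% (B6NT) and 0.763% (PDCUMNT), and those with neither line 1.04% (B6NT vs HM-1 NT), 0.245% (#4 (B6) vs B6NT) and 1.22% (#4 (B6) vs B6PGA). H4c8 was called in all 5, between -1.28 and -0.98, and in none of the 4 other comparisons with ZFCUMNT, where it lay between -0.22 and -0.11. S100a11 was called in 4 of the 5 (0.71 to 1.14 over all 5), and H3f3b (-1.01 to -0.43) and Rbm8a (0.04 to 1.17) in 3. In the 4 other ZFCUMNT comparisons S100a11 lay between -0.35 and 0.09, and H3f3b between -0.04 and 0.28.

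**Figure D4:**
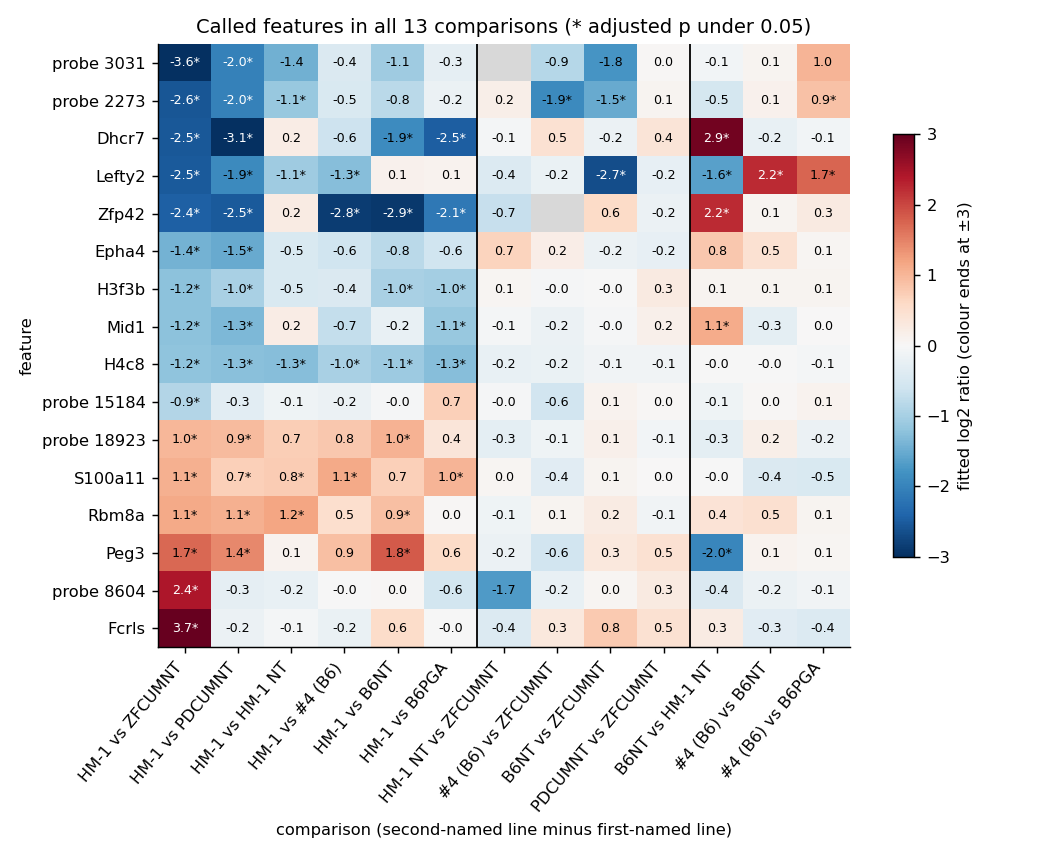
Fitted log2 ratio of the 16 features (rows) in all 13 comparisons (columns, second-named line minus first-named), with an asterisk where the adjusted p was under 0.05 and grey where not tested. The black lines separate comparisons with HM-1, those with ZFCUMNT and those with neither, and H4c8 lies between -1.28 and -0.98 in the other HM-1 columns and near 0 elsewhere.

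Zfp42, Dhcr7, Peg3 and Mid1 had a second pattern, which was picked out after their values were seen. In HM-1 vs HM-1 NT they were at 0.24, 0.23, 0.10 and 0.23, with none called. In HM-1 vs PDCUMNT they were called at -2.53, -3.12, 1.44 and -1.35. In B6NT vs HM-1 NT, which holds neither HM-1 nor ZFCUMNT, all 4 were called with the sign turned, at 2.24, 2.88, -1.97 and 1.11. Against #4 (B6), HM-1 gave Zfp42 -2.85 (called) but Dhcr7 -0.62 and Peg3 0.90, neither of which passed.

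Lefty2 had a pattern of its own. Against HM-1 it was called for HM-1 NT (-1.08), #4 (B6) (-1.29) and PDCUMNT (-1.91), but lay at 0.13 in HM-1 vs B6NT and 0.11 in HM-1 vs B6PGA. It was also called in all 3 comparisons that hold neither HM-1 nor ZFCUMNT, so it differed between other ES lines as well. In B6NT vs ZFCUMNT it was at -2.65 ± 0.25, close to its value against HM-1. In PDCUMNT vs ZFCUMNT it was at -0.24 ± 0.25. Probe_2273 was likewise called in B6NT vs ZFCUMNT (-1.50) and #4 (B6) vs ZFCUMNT (-1.90), and lay at 0.09 in PDCUMNT vs ZFCUMNT. Fcrls and probe_8604 were called in no other comparison.

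The difference from the other HM-1 comparisons was tested for HM-1 vs PDCUMNT and HM-1 vs HM-1 NT. HM-1 vs ZFCUMNT minus HM-1 vs PDCUMNT had 0 calls among 15197 features in limma (758 with an unadjusted p under 0.05, 4.99%). The difference was 0.59 ± 0.55 for Dhcr7, 0.08 ± 0.57 for Zfp42 and -0.60 ± 0.35 for Lefty2. Minus HM-1 vs HM-1 NT there were also 0 calls among 15327 features (624 with an unadjusted p under 0.05, 4.07%). The differences of the second pattern were -2.77 ± 0.55 for Dhcr7 (adjusted p = 0.060), -2.68 ± 0.57 for Zfp42 (0.11), 1.63 ± 0.49 for Peg3 (0.56) and -1.46 ± 0.36 for Mid1 (0.26). With arrays weighted by their precision this difference had 40 calls, among them Dhcr7 (adjusted p = 8.1e-05), Zfp42 (8.3e-04), Lefty2 (0.0018), Mid1 (0.0025) and Peg3 (0.0066).

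The 4 arrays had weights between 1.58 and 2.07, while the other 48 arrays had a median of 1.01. With those weights 308 features were called between HM-1 and ZFCUMNT (143 positive, 165 negative), all 16 among them. Newly past the threshold were Utf1 (adjusted p = 0.012), Nnat (1.3e-04), Hmgcs1 (0.014), Tcl1 (5.8e-04) and Triml1 (4.7e-05). The count of calls is therefore bound to how the spread is shared between arrays.

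Among the other gene lists no member passed in the direct test, and the lists are described by their medians. With array weights members of several lists passed, and of all features 308 of 15906 did. Among them were 5 of 48 chaperones (Hspb1, Pdia4, Cct7, Hspd1 and Hsp90b1) and 2 of 37 proteasome subunits (Psma2 and Psmb2), all positive. Of 28 silencing factors 3 passed (Trim28, Dnmt3a and Dnmt3l), also positive. Of the interferon response 3 passed positive (Bst2, Ifitm3 and Irf1) and 1 negative (Stat2), and of glycolysis 2 positive (Ldha and Pkm) and 1 negative (Slc2a3). Single members passed positive in oxidative phosphorylation (Cox7a2) and the cell cycle (Rrm2). Others passed negative in the cytosolic ribosomal proteins (Rpl26), p53 targets and apoptosis (Btg1) and WNT, BMP and FGF signalling (Wnt11). Of 37 proteasome subunits 33 were positive, with a median of 0.22 against -0.06 for all features, and the median was above 0 on each of the 4 arrays. In every other HM-1 comparison the proteasome median was positive too, from 0.09 (B6PGA) to 0.46 (HM-1 NT). The chaperone median was likewise positive in all of them, from 0.10 (B6PGA) to 0.36 (PDCUMNT). Psma2 was at 0.82 ± 0.25, Psmb2 at 0.55 ± 0.20 and the assembly factor Pomp at 0.88 ± 0.42. Of 48 heat shock proteins and chaperones 34 were positive (median 0.16), with Hspb1 at 0.77 ± 0.21, Hsp90b1 at 0.94 ± 0.35 and Hspd1 at 1.19 ± 0.42. Of 58 mitochondrial ribosomal proteins 40 were positive (median 0.17), whereas 26 of 60 cytosolic ribosomal proteins were (median -0.02). Of all features 43.3% were positive. On the indirect arrays 32 of 34 proteasome subunits were positive (median 0.41) and 5 were called. Of all features there 54.9% were positive (median 0.04) and 0.664% were called. None of the 5 passed on those arrays in the model with the shared term.

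**Figure D5:**
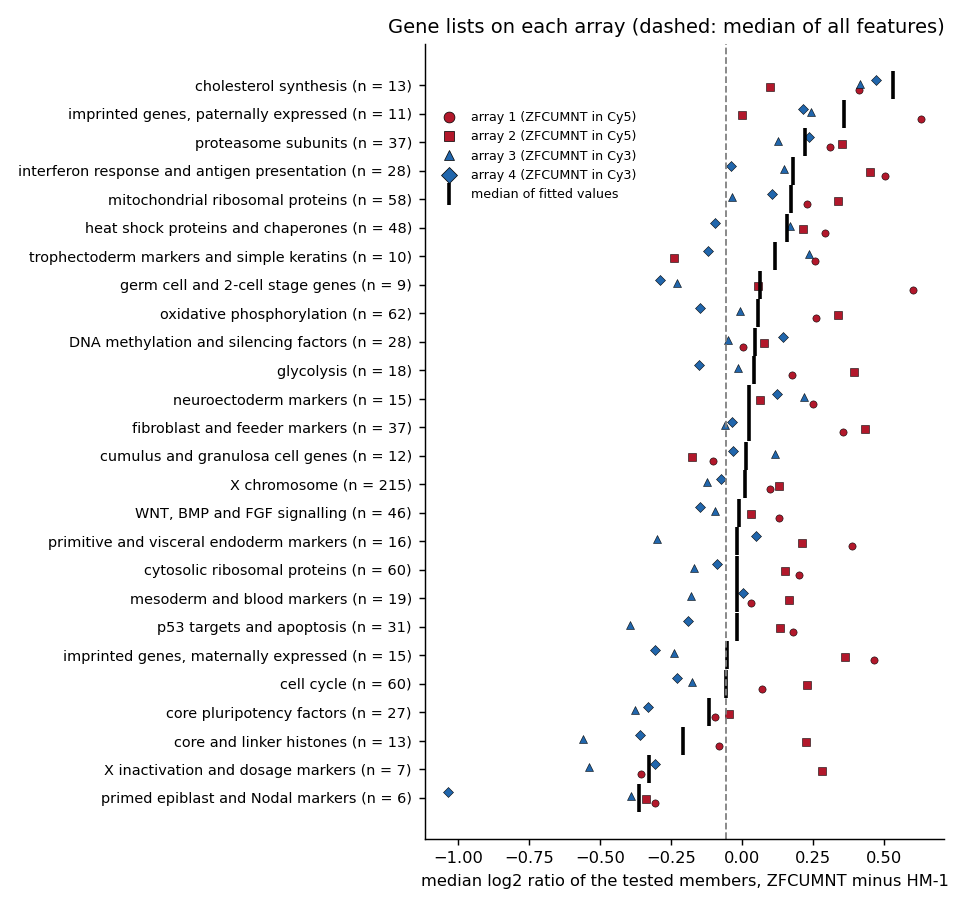
Median log2 ratio (x axis, ZFCUMNT minus HM-1) of the tested members of each gene list (y axis, with their number) on each array, and the median of the fitted values (black bar). For most lists arrays 1 and 2 lie to the right of arrays 3 and 4. Proteasome subunits, cholesterol synthesis and neuroectoderm markers lie right of 0 on all 4.

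Glycolysis (median 0.04 over 18 genes), oxidative phosphorylation (0.06 over 62) and the cell cycle (-0.06 over 60) had medians near that of all features. Ldha, lactate dehydrogenase A, was at 0.88 ± 0.33 with 4 positive arrays, and Slc2a3, a glucose transporter, at -1.06 ± 0.28 with 4 negative arrays (adjusted p = 0.16). Of 28 interferon response genes 18 were positive (median 0.18), with Irf1 at 1.25 ± 0.40 and Stat2 at -0.56 ± 0.22. Of 28 DNA methylation and silencing factors 19 were positive (median 0.05), with Dnmt3l at 1.15 ± 0.42.

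In the direct test no member of the following marker lists of other cell types passed. Fcrls, known from microglia, did pass and belongs to none of these lists. The median was 0.02 for 37 fibroblast and feeder markers, 0.02 for 15 neuroectoderm markers, 0.01 for 12 cumulus and granulosa genes, 0.11 for 10 trophectoderm markers and simple keratins, and -0.02 for 16 endoderm markers. Col1a1, a fibroblast collagen, split by dye at 0.79, 0.43, -0.90 and -0.68, and Vim was at 0.24 ± 0.21. Of the 37 fibroblast and feeder markers 19 were positive and 18 negative, with S100a4 the lowest at -1.09 ± 1.42 on 3 arrays. An unadjusted limma p under 0.05 was found for 5 of the 37, all with positive values, against 4.82% of all features. Dcn, the matrix proteoglycan decorin, was at 1.90, 1.31, 2.09 and 1.58 (1.72 ± 0.65, limma adjusted p = 0.66), Mmp3, a matrix metalloproteinase, at 1.24 ± 0.61 and Col3a1, a fibrillar collagen, at 0.77 ± 0.25. Of the 15 neuroectoderm markers 8 were positive and 7 negative, with Pax3 the lowest at -1.07 ± 0.81. Here 3 had an unadjusted p under 0.05, the neurofilament gene Nefm (1.54 ± 0.65), Nnat (1.37 ± 0.32) and Crabp1 (1.05 ± 0.28). Krt8 (-0.35 ± 0.43), Krt18 (0.18 ± 0.47), Gata6 (0.31 ± 0.55) and Dab2 (-0.25 ± 0.83) were near 0 with wide errors. The endoderm factor Sox17 was at 3.25, 3.52 and 2.54 on 3 arrays (2.92 ± 1.11, limma adjusted p = 0.69). With array weights Sox17 passed (adjusted p = 0.041), as did Col3a1, Nnat and Crabp1, all positive. The part of other cell types in the result was not tested.

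Neither Hprt, which HM-1 lacks in working form, nor Xist was among the gene symbols of the array. Of 2 Y-linked genes Zfy1 was tested (-0.29 ± 0.46) and Kdm5d was measured on 2 arrays. The median of 215 X-linked genes was 0.01 and that of 8285 autosomal genes -0.04. Mid1 was the X-linked gene called, while Rhox5, an X-linked homeobox gene, was at 0.76 ± 0.37 and Eif2s3x at -0.04 ± 0.40. Of the list of X inactivation and dosage markers 7 genes were tested and all 7 had negative values (median -0.33), from Fmr1 at -0.89 ± 0.65 to Eif2s3x, and none passed. None had an unadjusted limma p under 0.05 either. The median of the 7 was 0.28 on array 2 and negative on the other arrays.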

How the data were processed

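The 4 arrays of HM-1 vs ZFCUMNT and the other 48 two-colour arrays hold log2 ratios as the authors deposited them. The log base and the numerator dye are not given in the sources used here, nor are the scanner, background correction and normalization. Per the labels, 20 microgram of total RNA was labelled with Cy3 or Cy5. The labels' protocols also speak of organs and of pooled animals, while the labels of both channels give ES lines, which were followed.

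Values above 12, which are the constant top value of each array, were dropped, ratios were turned by the dye labels, and probes of 1 symbol were averaged. All 12771 symbols equal the RefSeq symbol of their Entrez gene. The 52 arrays were fitted together in R 4.3.3, by least squares per feature with limma 3.58.1 moderating the variances, with 1 value per comparison and a dye term. A feature was tested if 3 of 4 arrays in both orientations measured it, and p-values were adjusted by Benjamini-Hochberg within a comparison (threshold 0.05). The fit was tested on simulated data. The number of arrays limits the precision.

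The rule let the text name up to 12 called genes of each sign, called members and both extremes of each of 26 lists, a panel of 45 genes, and up to 6 genes of each sign from the other tests, and a selection of these is given. Genes just outside the threshold were named too, and others were named after their values were seen (Triml1, Bst2, Tcl1, Nnat and the unnamed probes among them). The comparison and the lists were chosen with earlier results of these data known. Alternatives covered top values, centring, scaling, array weights, the dye term, measured arrays, a replicate block, each array left out, the 4 arrays alone, single probes, unturned ratios, models with 1 value per line, and the paths used. The models with 1 value per line and the changes of paths were not planned beforehand.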

Additional observations from a re-analysis of the deposited data

Results flagged for a closer look

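Of 99 features examined for an array apart from the other 3, 4 had a gap above Dixon's 95% critical value for 4 values, and chance alone flags about 1 in 20. Inpp5f, an imprinted gene for an inositol phosphatase, was at 0.15 on array 4 and between -0.67 and -0.61 on the others. Esrrb, an orphan nuclear receptor of the pluripotency network, was at -0.091 on array 2 and between -0.51 and -0.45 on the others. Igf2, a paternally expressed growth factor, was at 1.57 on array 1 and between -0.001 and 0.24 on the others. Acot13, a thioesterase, was at -1.40 on array 3 and between -0.63 and -0.51 on the others. None of these 4 genes passed the test between the lines.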

How the results depend on the processing

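The 16 calls became 47 with arrays scaled to equal spread (23 positive, 24 negative), 308 with array weights, 25 with each probe tested singly, 10 without the dye term (2 positive, 8 negative), 0 with the 4 arrays alone (with or without a dye term), and 195 with 1 value per line. All 16 were among the 47, the 308 and the 25, and 13 among the 195. With ratios left as deposited 3 features passed, none of them among the 16. These were probe_13266, Tmbim7 and probe_9295, named after their values were seen. Subtracting array medians gave 19, with 10 positive and 9 negative. Leaving out 1 array gave 11 to 17 calls (9 positive and 8 negative without array 2), the shared term 11, and other settings 13 to 23. Single features were followed in most joint fits on turned ratios, and there probe_2273, Lefty2, H4c8, probe_3031, Dhcr7 and H3f3b stayed past the threshold. The model with 1 value per line and no shared term was not among these fits, so which of the 16 it lost is not given. No called feature changed sign under any alternative run on single features. The 83 indirect calls became 135 with scaling, 42 without the dye term, 4 with the shared term, 14 through PDCUMNT alone and 57 to 108 elsewhere. The difference from the indirect value had 2 calls with array weights (Apc and probe_11847) and 0 otherwise. That from HM-1 vs PDCUMNT had 2 (Trappc5 and probe_19756), and 0 to 1 with an array left out. That from HM-1 vs HM-1 NT had 5 with scaling, 40 with array weights, 1 with the replicate block and 0 with an array left out. The causes of these changes were not tested. With the array number as a replicate block 13 direct calls remained, all among the 16. Residuals of the 4 arrays had median correlations between -0.030 and -0.025 with same-numbered arrays of other comparisons. With other-numbered arrays the medians lay between -0.028 and -0.023. A median cannot show pairing with single comparisons, so whether the numbers pair any arrays was not settled.

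The overall sign and the log base are readings, and the labels do not say how many RNA extracts the 4 arrays stand for. Ratios give no expression levels, and signal over background is not given, so low signals could not be set apart. Arrays of opposite dye orientation correlated weakly over all features.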
